A study of Bubalus bubalis with 12 samples.

Results

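The SLC25 genes encode the mitochondrial carriers, a family of nuclear-encoded membrane proteins most of which sit in the inner mitochondrial membrane. Members were taken from the deposited expression table as every gene whose name is SLC25A followed by digits, which gave 44 of 34037 genes. Carriers under other names, such as MTCH1, MTCH2 and the UCP genes, are not among the 44. Below, the family means these 44 genes. RNA was measured in the ruminal wall of 12 Italian Mediterranean dairy buffaloes (Bubalus bubalis), adult multiparous cows already due for slaughter, of which 6 control animals ate a total mixed ration (TMR) and 6 treated animals a TMR diet with 30% green ryegrass. Both diets supplied equal nitrogen and energy. Each animal gave 1 RNA-seq library of a ruminal wall biopsy, for which neither the depth nor a separation of tissue layers is described. The question addressed is whether green feed changes gene expression in the rumen. Animals are named by the numbers in the sample descriptions, and equal numbers in both groups stand for different animals. The sample titles and the deposited columns carry other numbers for some animals, replicate 6 of both groups among them.

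The inner mitochondrial membrane lets few metabolites through by itself. Carriers of the SLC25 family exchange or transport ADP, ATP, phosphate, citrate, malate, aspartate, glutamate, acylcarnitines, nucleotides and cofactors across it, and thereby link cytosolic and mitochondrial metabolism. The rumen is lined by a stratified squamous epithelium that absorbs short-chain fatty acids made by microbial fermentation, oxidises part of them in its mitochondria and makes ketone bodies from butyrate. Beneath it lie connective tissue and layers of smooth muscle.

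The libraries held between 10531541 and 12948372 counted fragments, and values are given in FPKM (counted fragments scaled to gene length and to the total of the library), which allow levels to be compared between genes. Markers of the squamous epithelium were high, with a summed level of 12 genes between 3759 and 6759 FPKM over the 12 animals. Smooth muscle markers were far lower, with a summed level of 10 genes between 16.9 and 51.6 FPKM. RNA of immune cells was present too: of 8 immune markers PTPRC was the highest at a mean of 10.02 FPKM and 1, CD79B, was at 0 in all animals. Of 5 adipocyte markers FABP4 was at a mean of 85.7 FPKM, but CIDEC was at 0.497 and PLIN1 at 0.0076 FPKM, and ADIPOQ and LEP were at 0. The level of FABP4 alone therefore does not show RNA of adipocytes. Control replicate 6 and treated replicate 6 stood apart from the other 10 animals on the first component of variation within the groups, which held 28.4% of that variation. In these 2 libraries KRT5, a basal epithelial keratin, was at 451 and 498 FPKM against 1179 to 2372 FPKM in the others, and SDHA, a subunit of succinate dehydrogenase, was at 98.2 and 95.5 FPKM against 211 to 271 FPKM. Both libraries were also below all others for ACTB and GAPDH. COX1 was at 40682 and 40814 FPKM, barely above the range of 28359 to 40658 FPKM of the others. CS, citrate synthase, was at 75.6 and 59.6 FPKM, inside the range of 57.6 to 88.7 FPKM of the others. A score over the epithelial markers was lowest of all animals in treated replicate 6, at -1.95, but in control replicate 6, at -0.73, it was above that of control replicate 3, at -1.04. In bulk tissue, fewer cells of a type and less RNA per cell cannot be told apart. The total of control replicate 6 was the lowest of the 12, and that of treated replicate 6, at 12730099 fragments, was close to the highest.

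The 44 genes together made up between 0.208% and 0.310% of all FPKM of an animal. Summed FPKM of the 44 genes was 1501 ± 199 for control animals and 1511 ± 158 for treated animals (SD, n = 6 each), so that the group means differed by far less than the spread between animals. Expression was concentrated in few genes. The phosphate carrier and 1 ADP/ATP carrier held 48.8% to 58.4% of the summed FPKM of the 44 genes in each animal. The first 10 of the 44 held 81.8% to 87.96%. By mean level over the 12 animals, 3 members reached at least 100 FPKM, 14 lay between 10 and 100, 19 between 1 and 10, 4 between 0.1 and 1, and 4 below 0.1 FPKM. In 38 members every animal had more than 3 reads, the number taken here as the lowest that can be told from 0.

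**Figure D1:**
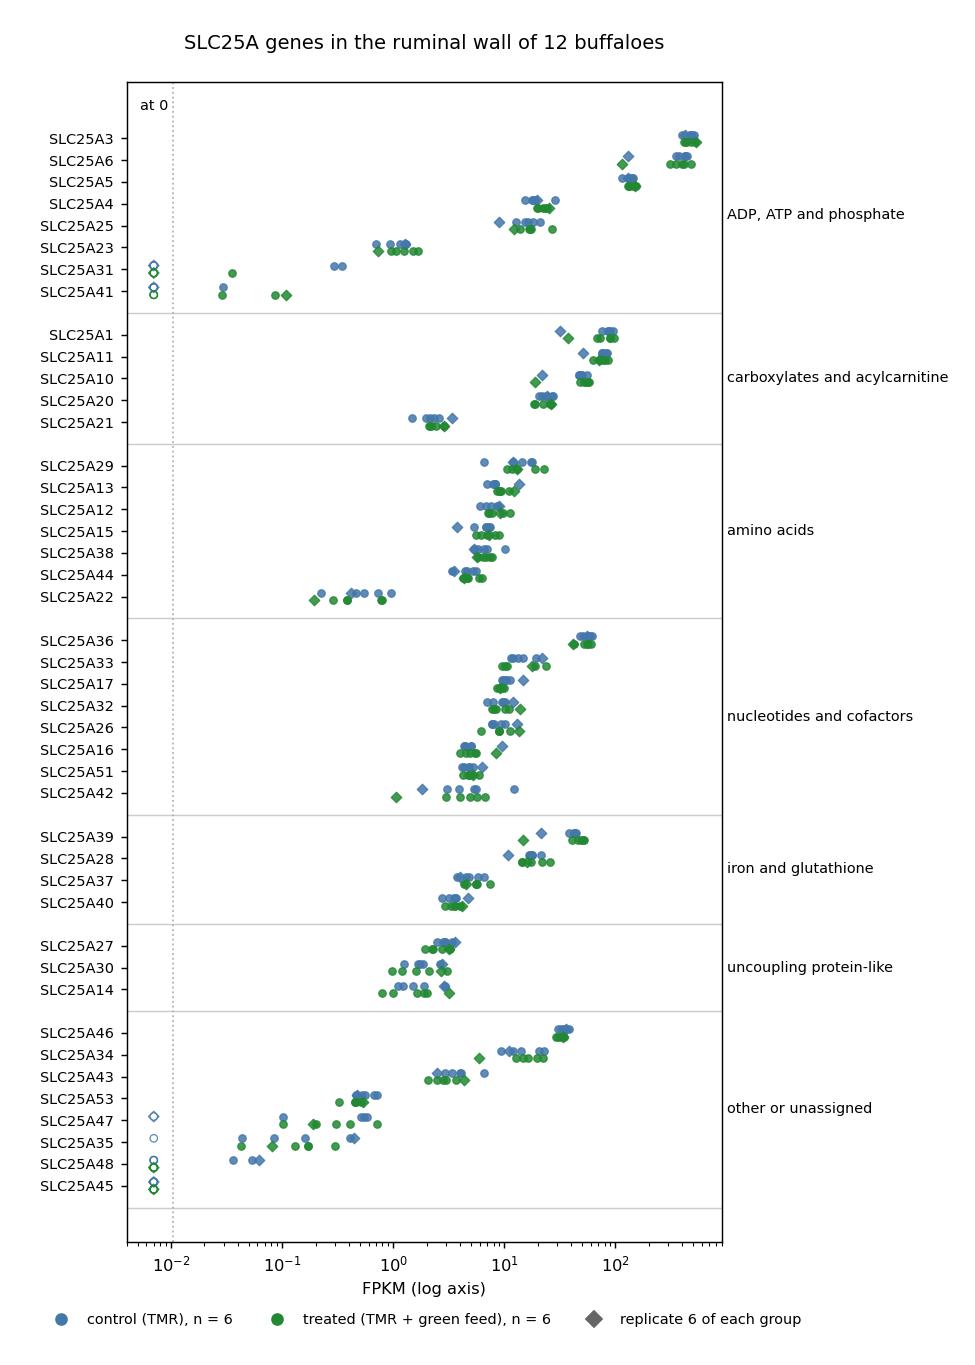
FPKM of 43 SLC25A genes in each animal on a logarithmic axis, grouped by what the carriers transport and sorted by mean level within a group. Each point is 1 of the 6 control or 6 treated animals, diamonds are replicate 6 of each group, and open symbols at the left are values of 0. The members span from SLC25A3, at 396 to 531 FPKM, to SLC25A45, at 0 in all animals, and both diets overlap in every tested member shown.

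The carriers that serve oxidative phosphorylation directly were the most expressed. SLC25A3, the carrier that brings in phosphate for ATP synthesis, had a lowest, median and highest level of 396, 470 and 506 FPKM in the control group and, with green feed, of 415, 456 and 531 FPKM. It was the highest member in 12 of 12 animals, and its level varied by no more than 1.34-fold among them. SLC25A6, an ADP/ATP carrier that exports ATP in exchange for ADP, ran over 131, 398 and 441 FPKM in the control and over 114, 371 and 475 FPKM in the treated group. The lowest value of each group belonged to replicate 6, and the other 10 animals lay between 310 and 475 FPKM. SLC25A5, a second ADP/ATP carrier found in many tissues, was at 114, 133 and 143 FPKM in the control and 131, 138 and 152 FPKM in the treated group, a narrow range in which the replicate 6 libraries did not stand out.

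SLC25A4, the ADP/ATP carrier best known from heart and skeletal muscle, was lower, at 15.3, 18.6 and 28.7 FPKM in the control and 19.9, 22.6 and 25.2 FPKM in the treated group. The 6 treated animals were all above the control median, but control replicate 3 was above all of them. SLC25A5 exceeded SLC25A4 in 12 of 12 animals, by 4.97 to 7.65-fold. SLC25A31, the ADP/ATP carrier known from testis, was seen with 9 reads in control replicate 3 and 10 reads in control replicate 5, and the other 10 animals had 1 read or none. Of the carriers that exchange ATP-Mg for phosphate, SLC25A25 had a mean of 16.4 FPKM and SLC25A23 of 1.15 FPKM, while SLC25A41 had at most 4 reads in any animal.

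Within each library the 3 expressed ADP/ATP carriers can be compared without any scaling between animals. SLC25A6 made up 68.2 ± 10.7% of their summed FPKM under the control diet and 65.3 ± 13.4% with green feed (SD, n = 6 each; exact two-sided permutation test, p = 0.558). For SLC25A5 the shares were 27.7 ± 9.28% and 29.9 ± 11.5% (exact permutation test, p = 0.576), and for SLC25A4 they were 4.13 ± 1.56% and 4.80 ± 1.95% (exact permutation test, p = 0.517). The spread came mostly from the replicate 6 libraries, with SLC25A6 shares of 46.4% in the control and 39.2% in the treated animal against 64.3% to 75.6% in the others. SLC25A5 was at 46.6% and 52.1% in those 2 animals and at 20.8% to 31.5% in the others.

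**Figure D2:**
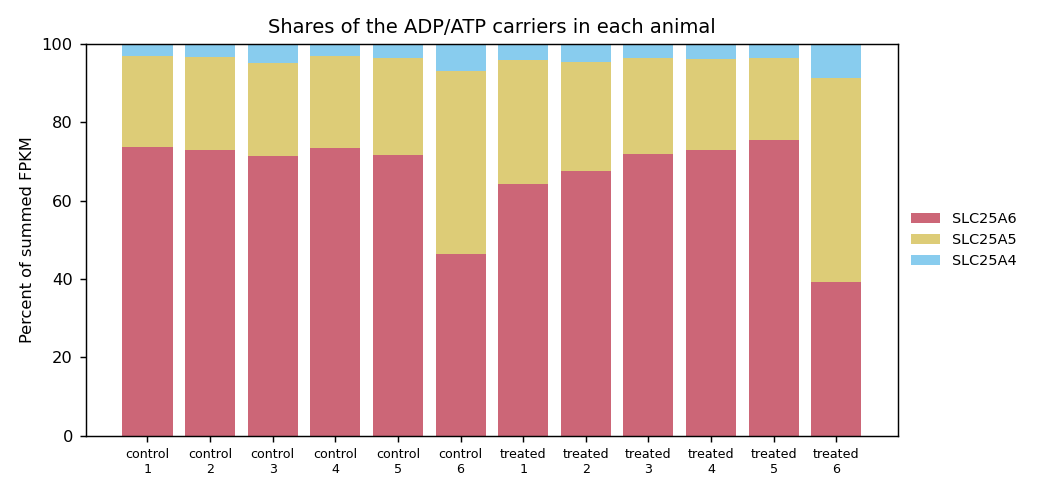
Share of SLC25A6, SLC25A5 and SLC25A4 in their summed FPKM, in percent, with 1 stacked bar for each of the 6 control and 6 treated animals. SLC25A6 takes 64.3% to 75.6% in 10 animals and 46.4% and 39.2% in control and treated replicate 6.

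The carriers of carboxylates and acylcarnitines formed a second abundant group. SLC25A1, which exports citrate and thereby supplies cytosolic acetyl units, was at 31.8, 85.8 and 96.0 FPKM in the control and 37.2, 80.8 and 96.6 FPKM in the treated group (lowest, median and highest). SLC25A11, which exchanges 2-oxoglutarate for malate and belongs to the malate-aspartate shuttle, was at 51.3, 76.5 and 83.7 FPKM and at 63.1, 74.6 and 86.0 FPKM. These 2 carriers were close in level, and SLC25A1 was the higher in 9 of 12 animals. SLC25A10, the dicarboxylate carrier, was at 22.0, 47.8 and 55.1 FPKM in the control and 18.8, 53.2 and 58.1 FPKM in the treated group, below SLC25A11 in 12 of 12 animals. The lowest values of SLC25A1 and SLC25A10 in each group were those of replicate 6.

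SLC25A20, which brings acylcarnitines into the matrix for fatty acid oxidation, was even among animals at 20.4, 23.8 and 27.2 FPKM in the control and 18.4, 23.9 and 26.4 FPKM in the treated group. SLC25A21, a carrier of oxodicarboxylates, was at 1.49, 2.25 and 3.39 FPKM in the control and 2.10, 2.31 and 2.89 FPKM in the treated group. It was therefore the low member of the carboxylate carriers under either diet.

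The amino acid carriers were of moderate level. SLC25A12 and SLC25A13, the aspartate-glutamate carriers of the malate-aspartate shuttle, had control values of 6.02, 8.06 and 8.97 FPKM and of 7.03, 8.19 and 13.4 FPKM, respectively. In the treated group SLC25A12 was at 7.18, 8.47 and 11.3 FPKM and SLC25A13 at 8.58, 9.29 and 12.2 FPKM. Neither of them led: SLC25A12 was the higher in 5 of 12 animals, with a ratio to SLC25A13 between 0.656 and 1.22. The highest SLC25A13 values of both groups were those of replicate 6.

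SLC25A15, the ornithine carrier, was at 3.76, 6.87 and 7.39 FPKM in the control and 5.54, 7.17 and 8.89 FPKM in the treated group. SLC25A29, a carrier of basic amino acids, exceeded it in 12 of 12 animals, with a ratio of SLC25A15 to SLC25A29 between 0.293 and 0.814. SLC25A44, a carrier of branched-chain amino acids, was at 3.41, 4.52 and 5.52 FPKM in the control and 4.26, 4.66 and 6.28 FPKM in the treated group. SLC25A38, a glycine carrier needed for heme synthesis, had a mean of 6.69 FPKM, and SLC25A22, a glutamate carrier, was barely expressed with a mean of 0.513 FPKM.

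Among the carriers of nucleotides and cofactors, SLC25A36, a pyrimidine nucleotide carrier, was the sixth member of the family at 48.0, 56.4 and 61.9 FPKM in the control and 41.4, 53.3 and 60.7 FPKM in the treated group. It exceeded SLC25A33, the other pyrimidine nucleotide carrier, in 12 of 12 animals by 2.34 to 5.45-fold. SLC25A17, a peroxisomal carrier of coenzyme A and nucleotide cofactors, was at 9.53, 10.3 and 14.9 FPKM in the control and 8.61, 9.13 and 10.02 FPKM in the treated group. SLC25A42, a mitochondrial coenzyme A carrier, varied more than any other tested member, by 11.5-fold among the 12 animals, with 1.82, 4.64 and 12.1 FPKM in the control and 1.05, 4.43 and 6.66 FPKM in the treated group.

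Other cofactor carriers had means of 9.59 FPKM for SLC25A32 (folate and FAD), 9.46 FPKM for SLC25A26 (S-adenosylmethionine), 5.46 FPKM for SLC25A16 (linked to coenzyme A) and 4.96 FPKM for SLC25A51 (NAD). None of these 4 reached the level of SLC25A33, at 15.3 FPKM.

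The glutathione and iron carriers each consist of a pair of paralogs of which 1 was clearly the higher. SLC25A39, a glutathione carrier, was at 21.4, 42.5 and 44.2 FPKM in the control and 14.6, 47.1 and 52.6 FPKM in the treated group, and its paralog SLC25A40 had a mean of 3.57 FPKM. The median ratio of SLC25A39 to SLC25A40 was 12.3 in the control and 13.3 in the treated group, and the lowest ratio of each group was that of replicate 6. SLC25A37, the mitoferrin known from red cell precursors, was at 3.77, 4.66 and 6.62 FPKM in the control and 4.35, 5.58 and 7.43 FPKM in the treated group. SLC25A28, the mitoferrin of other tissues, was above it in 12 of 12 animals by 2.57 to 5.06-fold.

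The members named as relatives of uncoupling proteins, SLC25A27, SLC25A30 and SLC25A14, had means of 2.82, 1.96 and 1.84 FPKM. Of the members grouped as other or unassigned, SLC25A46, an outer membrane protein that takes part in mitochondrial fusion and fission, was the highest at a mean of 33.4 FPKM and was among the steadiest of the family, with a 1.33-fold range. SLC25A34 had a mean of 15.1 FPKM and SLC25A43 of 3.49 FPKM. SLC25A53 had 17 to 41 reads, SLC25A47 at most 14, SLC25A35 at most 10 and SLC25A48 at most 3 reads in an animal, and SLC25A45 had 0 reads in all animals. A count of 0 in a library allows up to 3 reads, by counting error only.

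The order of the members was firm at the top and loose below. Neighbours in the order of mean level kept their order in 12 of 12 animals for SLC25A3 over SLC25A6, SLC25A5 over SLC25A1 and SLC25A46 over SLC25A20. SLC25A6 was above SLC25A5 in 10 of 12 animals, the exceptions being the replicate 6 libraries. From SLC25A33 to SLC25A13 most neighbours could not be told apart, with the first of each pair higher in 6 to 8 of 12 animals except for SLC25A29 over SLC25A17, in 10. The spread between animals of 1 diet had a median SD of 0.32 on the log2 scale over the 37 tested members, against 0.36 over all tested genes.

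Diet was then compared for the 37 members that had at least 40 scaled reads in at least 1 animal. No member had a nominal p-value below 0.05 (0 of 37, limma on log2(FPKM + 0.01)), where 1.26% of the 12740 genes tested did, and no adjusted p-value was below 0.05 for any member (the share over all genes tested was 0%). The smallest adjusted p-value was 1.00 to 3 digits, for members and for all genes alike. Estimates were higher in the treated group for 23 members and lower for 14, with a median log2 fold change of 0.03 against 0.0049 over all tested genes. The median size of the log2 fold change was 0.10 for members and 0.09 over all tested genes. The groups overlapped in all 37 members (0.0549% of all genes tested did not overlap).

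**Figure D3:**
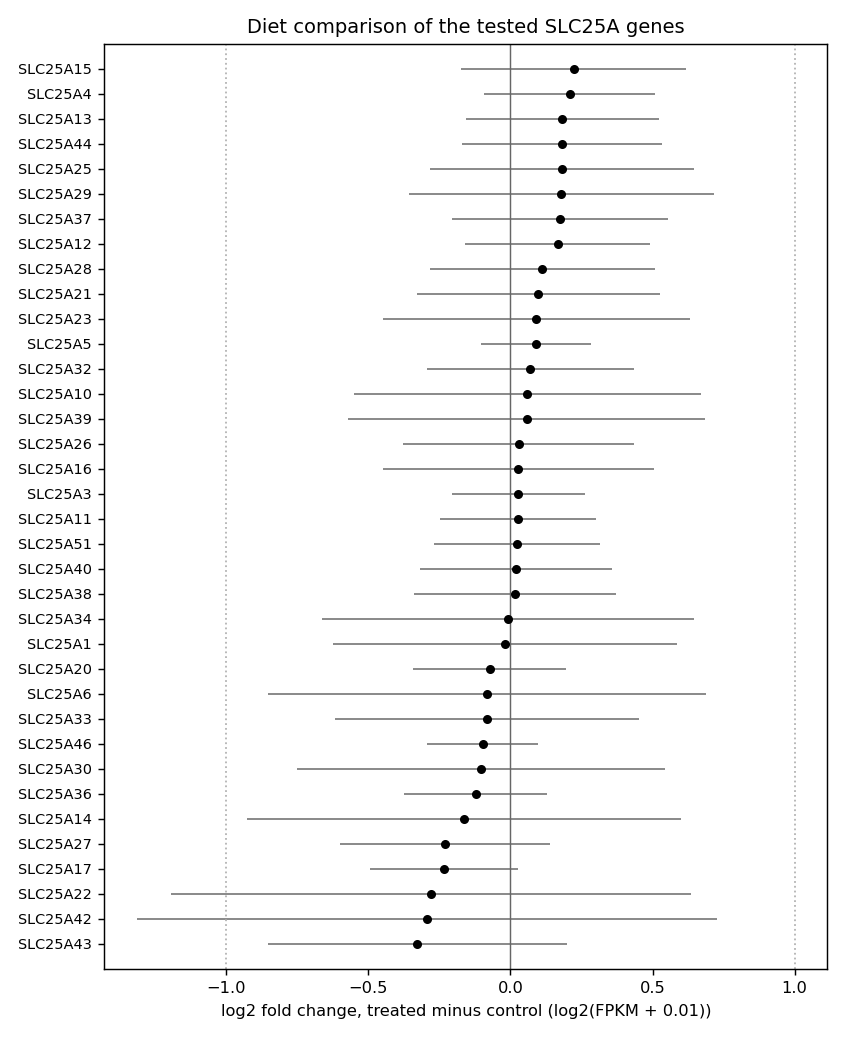
Log2 fold change of 36 tested SLC25A genes, treated minus control, from limma on log2(FPKM + 0.01) with 6 animals in each group. Bars are 95% confidence intervals and dotted lines mark 2-fold changes. All 36 intervals include 0 and 34 lie within the dotted lines.

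The intervals set what could have been missed. For 21 members the 95% confidence interval of the fold change lay within 1.5-fold in either direction, and for 35 it lay within 2-fold. The 2 exceptions were SLC25A42, with a log2 interval of -1.31 to 0.73, and SLC25A22, with -1.19 to 0.64. For the 3 most expressed members the log2 fold changes were 0.03 ± 0.11 for SLC25A3, -0.08 ± 0.36 for SLC25A6 and 0.09 ± 0.09 for SLC25A5 (SE), where SLC25A6 had the widest interval, of -0.85 to 0.69. Without both replicate 6 animals the log2 fold change of SLC25A6 was -0.06 ± 0.13 (SE). SLC25A20 had a log2 fold change of -0.07 with an interval of -0.34 to 0.20, and SLC25A1 of -0.02 with -0.62 to 0.59.

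Of the transport groups, the amino acid carriers had 6 of 7 estimates on the higher side with a median log2 fold change of 0.18, and the iron and glutathione carriers 4 of 4 with a median of 0.08. The uncoupling protein-like members had 3 of 3 estimates on the lower side with a median of -0.16, as had SLC25A46, SLC25A34 and SLC25A43 of the other or unassigned members with a median of -0.10. For the ADP, ATP and phosphate carriers 5 of 6 estimates were higher, for the carboxylate and acylcarnitine carriers 3 of 5 and for the nucleotide and cofactor carriers 5 of 9. The share of higher estimates over all genes tested was not counted, and the median log2 fold change of those genes was 0.0049. With the smooth muscle score as a covariate the counts moved. Higher estimates were then held by 2 of 4 iron and glutathione carriers, 2 of 3 uncoupling protein-like members and 5 of 7 amino acid carriers. So did 4 of 6 ADP, ATP and phosphate, 4 of 5 carboxylate and acylcarnitine, 5 of 9 nucleotide and cofactor and 1 of 3 other or unassigned members. None of these estimates passed the test, and members within a group share animals, so that the counts are descriptions.

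SLC25A17 had the smallest p-value of the family. All 6 treated animals were below the control median of 10.3 FPKM, and its log2 fold change was -0.23 ± 0.12 (SE, limma nominal p = 0.0748, adjusted p = 1.00; exact two-sided permutation test, p = 0.0108). By the permutation test it was the 1 member below 0.05, where 1.76% of all genes tested were and no adjusted value was. Control replicate 6 was the highest animal at 14.9 FPKM, and the other 5 control animals were between 9.53 and 11.3 FPKM. Without both replicate 6 animals its log2 fold change was -0.14 (limma nominal p = 0.145; exact permutation p = 0.0397).

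SLC25A4 was next, with a log2 fold change of 0.21 ± 0.14 (SE, limma nominal p = 0.158; exact permutation p = 0.156). With single animals left out, the log2 fold change of SLC25A4 ran from 0.14, without control replicate 2, to 0.32, without control replicate 3. The latter animal was the highest of the 12 at 28.7 FPKM. Without it SLC25A4 passed the nominal threshold, as did 212 of the 12740 genes tested. SLC25A43 was at 2.48, 3.70 and 6.56 FPKM in the control and 2.05, 2.88 and 4.37 FPKM in the treated group, on 36 to 120 reads, with a log2 fold change of -0.33 ± 0.24 (SE, limma nominal p = 0.201; exact permutation p = 0.234). Its estimate depended on single animals: it was -0.17 without control replicate 1, the highest of the 12, -0.45 without control replicate 6, and -0.16 with the smooth muscle score as a covariate. Replicate 6 was its lowest control and its highest treated animal, and without both the log2 fold change was -0.56 (limma nominal p = 0.0309, adjusted p = 1.00; exact permutation p = 0.0476). SLC25A27 was at 2.49, 2.93 and 3.60 FPKM in the control and 1.95, 2.51 and 3.25 FPKM in the treated group, a log2 fold change of -0.23 ± 0.17 (SE, limma nominal p = 0.203; exact permutation p = 0.139).

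The comparison was also made without both replicate 6 animals, with 5 animals in each group. SLC25A13 and SLC25A43 then had nominal p-values below 0.05 (2 of 37 members, where 2.49% of all genes tested did), and no gene passed the adjustment. SLC25A13 had a log2 fold change of 0.25 ± 0.10 without these animals (SE, limma nominal p = 0.0308, adjusted p = 1.00; exact permutation p = 0.00794, the smallest that 252 assignments allow) and of 0.18 ± 0.16 with them (limma nominal p = 0.269). Its 5 remaining control animals lay between 7.03 and 8.29 FPKM and the 5 treated animals between 8.58 and 11.04 FPKM, without overlap, where 0.447% of all genes tested did not overlap among these 10 animals. It was the 1 member of which this held. By the exact permutation test 3 of 37 members, SLC25A13, SLC25A17 and SLC25A43, were then below 0.05, where 2.86% of all genes tested were.

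Paralog ratios did not differ detectably between diets either. Over 8 shares and ratios the exact two-sided permutation p-values ran from 0.517 to 0.939, and every adjusted value was 0.939. The mean log2 ratio of SLC25A12 to SLC25A13 was -0.17 ± 0.31 in the control and -0.19 ± 0.36 in the treated group, that of SLC25A39 to SLC25A40 was 3.42 ± 0.61 and 3.46 ± 0.83, and that of SLC25A28 to SLC25A37 was 1.78 ± 0.37 and 1.72 ± 0.36 (SD, n = 6 each). The corresponding values were -1.06 ± 0.49 and -1.02 ± 0.50 for SLC25A15 to SLC25A29, and -1.88 ± 0.40 and -1.84 ± 0.54 for SLC25A33 to SLC25A36. Each difference between diets was smaller than the spread within a diet.

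For 12 of the 37 tested members the replicate 6 libraries lay outside the range of the other 10 animals. Both replicate 6 animals were below all other 10 animals for 6 of the 37 members, SLC25A42, SLC25A6, SLC25A39, SLC25A10, SLC25A1 and SLC25A25, where 19.3% of all genes tested behaved so and 16.2% of the members. They were above all others for another 6 members, SLC25A16, SLC25A32, SLC25A26, SLC25A13, SLC25A21 and SLC25A40, likewise 16.2%, where 8.63% of all genes tested did. SLC25A6 was at 131 and 114 FPKM in these libraries, SLC25A10 at 22.0 and 18.8 against 46.7 to 58.1 FPKM, and SLC25A39 at 21.4 and 14.6 against 37.9 to 52.6 FPKM. On the other side, SLC25A16 was at 9.43 and 8.49 against 3.98 to 5.55 FPKM and SLC25A32 at 11.9 and 13.8 against 6.96 to 10.9 FPKM. What sets these libraries apart was not tested, and the labels give no batch.

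**Figure D4:**
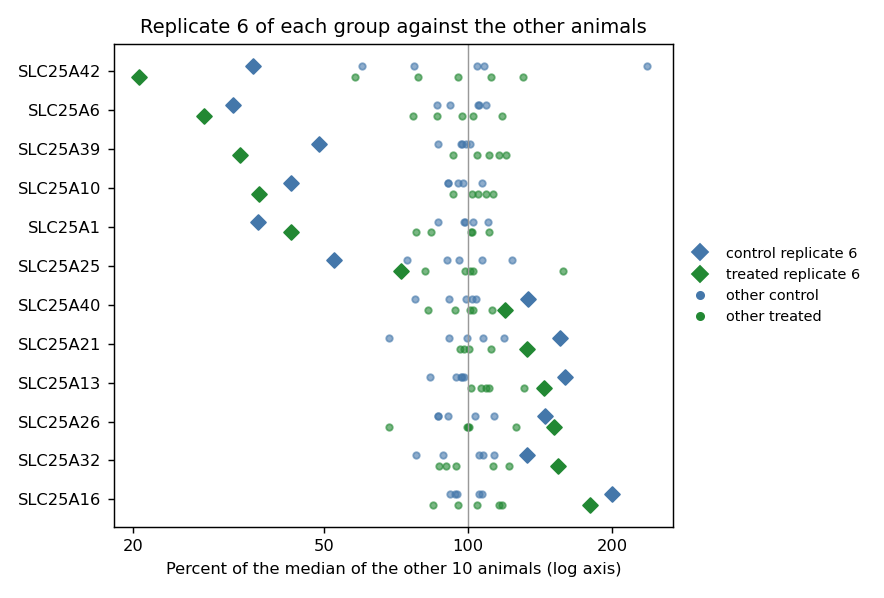
FPKM in percent of the median of the 10 other animals, on a logarithmic axis, for the 12 members for which both replicate 6 animals lay outside the range of the others. Large diamonds are control and treated replicate 6 and small points the other animals. SLC25A42, SLC25A6, SLC25A39, SLC25A10, SLC25A1 and SLC25A25 are low in both, and the other 6 members are high in both.

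A biopsy of the wall can hold more or less muscle. Of 10 smooth muscle markers 7 were tested, with a median log2 fold change of -0.72 and 1 lower at a nominal p-value (1.26% of all genes tested had one in either direction), DES (desmin), at -1.04 ± 0.42 (SE, limma nominal p = 0.0271; exact permutation p = 0.0519). The 7 estimates ran from -1.04 for DES to -0.03 for SMTN, the highest marker at a mean of 13.5 FPKM (exact permutation p = 0.905). SYNM was at -0.14 (exact permutation p = 0.688). CNN1 and ACTG2, too low for the limma test, were at 1.17 and 0.851 FPKM in the control and 0.3995 and 0.307 FPKM in the treated group on average, each with an exact permutation p of 0.0238. By that test 1.76% of all genes tested were below 0.05. LMOD1, also too low for limma, had an exact permutation p of 0.271. The summed level of the 10 markers was 29.7 to 51.6 FPKM in the control and 16.9 to 42.3 FPKM in the treated group, none of them at 0 in all animals, and 8 fibroblast markers had a median log2 fold change of -0.74 with none past the nominal threshold. With the smooth muscle score as a covariate no member had a nominal p-value below 0.05 for diet (0 of 37, as without it), where 1.73% of all genes tested did. The estimates of 8 members then took the other sign, among them SLC25A30 (-0.10 to 0.18) and SLC25A29 (0.18 to -0.06). How far muscle content enters the diet estimates was not tested.

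Among animals within a diet, no member changed with the smooth muscle score at an adjusted p-value below 0.05 (limma, 0 of 37; 0% of all genes tested). SLC25A20 was the 1 member with a nominal p-value below 0.05, at a slope of 0.16 ± 0.07 log2 units per SD of the score (SE, limma adjusted p = 0.908), where 5.01% of all genes tested had one. The largest positive slopes were those of SLC25A30 (0.30), SLC25A14 (0.25), SLC25A43 (0.18), SLC25A20 and SLC25A16 (0.12), and the largest negative ones those of SLC25A23 (-0.26), SLC25A29 (-0.24), SLC25A28 (-0.12), SLC25A44 (-0.11) and SLC25A39 (-0.11). With a score of epithelial markers in place of the muscle score, 5 of 37 members passed the adjustment, where 21.6% of all genes tested did. SLC25A39, SLC25A42, SLC25A34 and SLC25A10 were higher, and SLC25A14 lower, in animals with a higher epithelial score, and treated replicate 6 had the lowest such score of all animals.

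Genes that work beside the carriers were compared in 10 lists of 122 genes, of which 117 were in the table and 102 were tested. None of the 102 had a nominal p-value below 0.05, where 1.26% of all genes tested did, and their median log2 fold change was 0.0093. Among other carriers and pores, 12 genes were tested with a median log2 fold change of 0.13: VDAC1, the main pore of the outer membrane, was at 206 ± 20.5 FPKM in the control and 232 ± 22.8 FPKM in the treated group (SD, n = 6 each; exact permutation p = 0.0714), and SFXN4 was at 8.51 ± 1.02 and 10.4 ± 2.54 FPKM (exact permutation p = 0.143). UCP1 and UCP3, the uncoupling proteins of brown fat and of muscle, were at 0 in all animals. UCP2 of the same list was expressed, at 1.48 ± 0.450 and 1.81 ± 0.770 FPKM (exact permutation p = 0.584). MTCH2 and MTCH1, also of this list, had means of 90.2 and 74.3 FPKM.

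In the carnitine shuttle 8 genes were tested with a median log2 fold change of -0.0015. HADHA, a subunit of the enzyme that oxidises long-chain fatty acids, was at 205 ± 16.5 and 201 ± 17.8 FPKM (exact permutation p = 0.699), and CPT1B at 0.971 ± 0.527 and 1.27 ± 0.408 FPKM. The malate-aspartate shuttle enzymes (6 tested) had a median log2 fold change of 0.02, with MDH1, cytosolic malate dehydrogenase, at 219 ± 21.7 and 213 ± 42.1 FPKM. Around citrate (9 tested, median log2 fold change -0.01), IDH1, cytosolic isocitrate dehydrogenase, was at 340 ± 72.6 and 339 ± 93.6 FPKM, and ME2, mitochondrial malic enzyme, at 199 ± 28.6 and 230.0 ± 23.4 FPKM (log2 fold change 0.21 ± 0.12, SE; limma nominal p = 0.0955, exact permutation p = 0.0758).

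Genes around ornithine, urea and glutamate (9 tested) had a median log2 fold change of 0.0027. ARG1, arginase, was at 58.3 ± 15.0 and 63.1 ± 21.5 FPKM, whereas OTC, the mitochondrial enzyme that uses ornithine in the urea cycle, was at 0 in all 12 animals although the ornithine carrier SLC25A15 was expressed in each of them. For branched-chain amino acid breakdown (7 tested) the median was -0.10, with DLD at 65.6 ± 9.20 and 65.5 ± 7.04 FPKM and BCAT2, the mitochondrial aminotransferase, at 6.99 ± 1.48 and 5.89 ± 1.49 FPKM (exact permutation p = 0.238).

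In the list of iron, heme and glutathione genes (11 tested, median log2 fold change -0.0079) TFRC, the transferrin receptor, was at 92.3 ± 12.9 FPKM in the control and 77.7 ± 14.8 FPKM in the treated group (SD, n = 6 each; log2 fold change -0.26 ± 0.14, SE; limma nominal p = 0.0790, exact permutation p = 0.0974), the smallest limma p-value of the 102 genes. ALAS2, the heme synthesis enzyme of red cell precursors, was at 0 in all animals, and SLC25A37 and SLC25A38 were expressed in all of them. Genes of folate, S-adenosylmethionine, coenzyme A and NAD metabolism (18 tested) had a median of 0.01, with MTHFD1, a folate enzyme, at 180 ± 15.0 and 192 ± 28.4 FPKM and TK2, mitochondrial thymidine kinase, at 2.60 ± 0.517 and 3.11 ± 0.487 FPKM.

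The partners of ADP, ATP and phosphate transport (10 tested, median log2 fold change 0.04) were the most abundant of these genes. ATP5F1A, a subunit of ATP synthase, was at 1030 ± 121 FPKM in the control and 1032 ± 175 FPKM in the treated group, and ATP5IF1, the inhibitor of ATP synthase, at 146 ± 39.6 and 160.0 ± 23.3 FPKM. General mitochondrial genes (12 tested, median 0.03) included HSPD1, the matrix chaperonin, at 304 ± 60.3 and 305 ± 49.8 FPKM and TFAM, the factor that packages mitochondrial DNA, at 19.3 ± 1.33 and 17.9 ± 2.45 FPKM (exact permutation p = 0.238).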

How the data were processed

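Total RNA of the ruminal wall was sequenced from stranded libraries, 1 for each of the 12 animals, with none pooled. The authors used Trimmomatic 0.39 for trimming, STAR 2.5.2b for alignment to UOA_WB_1 and featureCounts 2.0.0 for counting pairs per gene, with the strand respected and a minimum mapping quality of 30. They deposited FPKM values, for which the tool and gene lengths are not given in the sources used here. Of the table's columns 4 match no sample and were not used. Reads in near-identical gene copies can be lost at this mapping quality, which makes the ADP/ATP carriers less certain than other members.

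The FPKM of a gene are whole multiples of the worth of 1 read, from which the reads of all 22972 genes above 0 were worked out (within 0.001 of a whole read). Between 10531541 and 12948372 fragments per animal set the precision, and 3 reads were taken as the floor. A gene was tested if 1 animal or more had 40 or more TMM-scaled reads (12740 genes), a round value near the threshold of the study. Log2(FPKM + 0.01) was fitted in limma 3.58.1 (R 4.3.3) by lmFit and eBayes with a variance trend. Adjusted p-values are Benjamini-Hochberg values over the 12740 genes. A nominal p-value below 0.05, the threshold of the study, was the call. Folds on this scale understate changes of low genes. For single genes, exact two-sided permutation tests used all 924 assignments (smallest p = 0.00216). A score is the mean standardised log2 value of a marker list, scaled to an SD of 1. The method was tested on simulated data, with reads drawn for each gene independently. No simulated library stood apart, so that this does not show how the method behaves with the replicate 6 animals. Python 3.11.15, numpy 2.4.6, pandas 2.3.3 and matplotlib 3.10.9 were used.

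The members, gene lists and tests were chosen with earlier results of these data known. Group values are given for the 6 members with the highest mean, for the ADP/ATP carriers and a fixed set of carriers of each transport group, and for the 4 members with the smallest limma p-values. From each list of partner genes, the gene with the highest mean and that with the smallest p-value could be named. UCP1, UCP3, OTC, ALAS2, ADIPOQ, LEP and CD79B, which are at 0, and the reference genes set out for the replicate 6 animals were chosen after values were seen. So were CNN1, ACTG2, LMOD1, SMTN, SYNM, PLIN1 and CIDEC of the marker lists, and UCP2, MTCH1 and MTCH2 of the partner lists. Genes named SLC25A2, SLC25A18, SLC25A24 or SLC25A52 were not analysed here. The values of 1 member are not reported here, and counts over the family include it. Alternatives were pseudocounts of 0.1 and 1, all genes above 0, a mean of at least 0.5 FPKM, scaling by the median of ratios, robust empirical Bayes, voom on the reads, the replicate number as a block, the smooth muscle score as a covariate, and leaving out single animals. Leaving out both replicate 6 animals was chosen after seeing the data. The labels do not say that animals came from separate pens or days. By the paper the animals were kept in pens and killed together, and whether the diets shared pens is not stated. The p-values set the difference between groups against the spread between animals.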

Additional observations from a re-analysis of the deposited data

Results flagged for a closer look

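Dixon's test was applied to 90 groups of 6 values, over the tested members and the 8 paralog shares and ratios in each diet. In 22 of them 1 animal lay far from the other 5, where independent groups of normally distributed values would give about 4.5 by chance. Control replicate 6 was that animal in 11 groups and treated replicate 6 in 7, so that most of these values belong to the 2 libraries that stand apart. The groups are not independent, because the shares and ratios reuse the same members. Dixon's test was not run over all genes tested. Of these, 19.3% had both replicate 6 libraries as the lowest pair and 8.63% as the highest pair. In the control group replicate 6 was low for SLC25A6 (131 FPKM against 348 to 441 in the others), SLC25A10 (22.0 FPKM), SLC25A39 (21.4 FPKM), SLC25A1 (31.8 FPKM) and SLC25A11 (51.3 FPKM), and high for SLC25A13 (13.4 FPKM), SLC25A16 (9.43 FPKM) and SLC25A17 (14.9 FPKM). In the treated group replicate 6 was low for SLC25A10 (18.8 FPKM) and SLC25A39 (14.6 FPKM) and high for SLC25A16 (8.49 FPKM).

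The shares of the ADP/ATP carriers were set apart in the same libraries. In control replicate 6 SLC25A6 made up 46.4% and SLC25A5 46.6% of the 3 expressed genes, and in treated replicate 6 SLC25A6 made up 39.2%, SLC25A5 52.1% and SLC25A4 8.70%. The log2 ratio of SLC25A39 to SLC25A40 was 2.19 in control replicate 6 and 1.80 in treated replicate 6, against at least 3.52 in the other animals.

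The 4 values in other animals were SLC25A4 in control replicate 3 (28.7 FPKM against 15.3 to 19.7 in the other control animals), SLC25A42 in control replicate 2 (12.1 FPKM), SLC25A38 in control replicate 1 (10.1 FPKM) and SLC25A25 in treated replicate 2 (26.7 FPKM).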

How the results depend on the processing

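Over 22 alternatives and 37 members, 810 of 814 combinations stayed on the same side of the nominal threshold and 4 passed it: SLC25A4 without control replicate 3, SLC25A13 without control replicate 6 (log2 fold change 0.31), and SLC25A13 and SLC25A43 without both replicate 6 animals. Estimates of 23 members, none of them called, took the other sign under some alternative, and 14 kept their sign under all. The number of members with a nominal p-value below 0.05 was 0, ranged from 0 to 1 when 1 animal was left out, was 2 without both replicate 6 animals and was 1 with all genes above 0, where SLC25A48, with at most 3 reads in any animal, was that member. Over all genes the count was 161, and it ran from 145 to 331 of 12740 when 1 animal was left out. It was 212 without control replicate 3 and 202 without control replicate 6, the leave-outs in which 1 member passed. The count rose to 562 of 22972 with all genes above 0 (2.45%), to 317 without both replicate 6 animals, to 331 without treated replicate 6 and to 325 with the replicate block. With this block 0 members were called. The number marks no shared animal, and same-numbered animals correlated by -0.01 to 0.41 in their deviations, not all above 0.1, nor did every animal correlate best with its own number, so that the block was not used. No gene passed the adjustment under any alternative of the diet comparison, voom on the reads included (149 nominal). No member passed the adjustment for the smooth muscle score under the alternatives that kept this score, against 5 with the epithelial score. The paralog comparisons stayed on their side of the threshold throughout. With 6 animals a group, changes below about 1.5-fold were not detectable for many members, and SLC25A22, with 13 to 63 reads, is limited by depth too.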
